A study of Mus musculus with 18 samples.

Results

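Loss of the estrogen receptor ERα was examined without added hormone, by setting the arcuate nucleus of ERKO mice given oil beside that of wild-type (WT) mice given oil. Both groups held 3 RNA-seq libraries, so 6 of the 18 libraries of the series carried the comparison (n = 3 in each group throughout). All mice were ovariectomized C57/BL females, and the oil groups received oil on days 5 and 6 after surgery and were killed 24 h after the second injection, following 1 h without food. The other groups used here were KIKO mice under oil, and WT and ERKO mice whose injections held estradiol benzoate (E2) at 250 ng (day 5) and then 1500 ng (day 6). The labels name ERKO as a knockout of ERα and KIKO as a further ERα genotype. They state neither how the alleles were made, nor age, nor whether a library came from a single animal, so p-values measure the spread between libraries, which may be technical. Of 23235 gene symbols, 14772 with a mean of at least 0.5 FPKM over the 18 libraries were tested, and FPKM is a fragment number scaled by transcript length and library size.

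ERα is a nuclear receptor that, once bound by estradiol, regulates genes at estrogen response elements in DNA or through other transcription factors such as those of the AP-1 and CREB families. The arcuate nucleus holds neurons that make kisspeptin, neurokinin B and dynorphin and drive gonadotropin-releasing hormone secretion, neurons of the Pomc and Agrp types that govern feeding, and dopamine neurons that restrain prolactin. After ovariectomy little circulating estradiol remains, so a comparison under oil sets ERKO beside WT when ligand is low. Effects of receptor loss from before surgery cannot be told apart from those after it. KIKO, as the name is generally used, denotes a receptor that cannot bind estrogen response elements, carried over a null allele.

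The dissection carried arcuate transcripts at high level in every library of the comparison. Pomc ran from 596 to 1418 FPKM, Npy from 439 to 957 and Tac2 from 585 to 1417 over the 6 oil libraries. Markers of the neighbouring paraventricular and supraoptic nuclei were also present (8 listed, 7 tested). Summed levels here and below take every list member with a matched symbol, tested or not. For these nuclei the sum ran from 4528 to 7367 FPKM in WT oil and from 1816 to 4382 in ERKO oil. Avp and Oxt were the main contributors. The summed level of the pituitary and pars tuberalis markers (14 listed, 10 tested) ran from 178 to 905 FPKM in WT oil and from 127 to 719 in ERKO oil. Of these, Gh and Prl were listed at 0 in both oil groups, where an exact 0 can be a failed estimate.

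Some properties of the libraries moved with genotype. Relative sequencing depth, inferred from the confidence bounds, was 0.778 to 0.954 in WT oil and 1.08 to 1.26 in ERKO oil. Among the 14772 genes the libraries of the WT oil and ERKO oil groups correlated at 0.964 to 0.995. ERKO E2 3, which is not part of the oil comparison but enters the shared estimate of spread, correlated with the others at 0.919 to 0.954. Transcript GC content also moved with the groups, as described below.

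Of 14772 genes, 213 (1.44%) passed an adjusted p of 0.05 in limma, with 112 (0.758%) higher and 101 (0.684%) lower in ERKO oil. All 213 showed no overlap between the 3 ERKO oil and 3 WT oil libraries, a state shared by 5801 genes (39.3%) of those tested, 20.8% higher and 18.4% lower. Changes of at least 2-fold numbered 21 (0.142%), 6 higher (0.0406%) and 15 lower (0.102%). The largest falls past the threshold among the named genes were those of Timp1, Gal, Adh7, Esr1, Procr, Vgf and Pdyn, and the largest rise was that of the mitotic checkpoint kinase Bub1b. Log2 changes below are ERKO oil minus WT oil on log2(FPKM + 1), with the standard error (SE) of the limma fit, and that scale understates changes of weakly expressed genes.

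The number of calls rested on the libraries fitted. With ERKO E2 3 left out of the fit, 3319 genes passed (22.5%), 1761 higher (11.9%) and 1558 lower (10.5%), and all 213 genes were among them. With ERKO oil replicate 1, 2 or 3 left out, 6, 8 and 1 genes passed, and with WT oil replicate 1, 2 or 3 left out 42, 12 and 287. A correction that removed each library's trend on transcript length and GC content, both of which moved with genotype, is given below beside genes whose call it ended or whose change it moved most. Timp1 passed in 22 of 22 alternatives, Gal and Gpr17 in 21 of 22, Vgf in 20 of 22, and Ovgp1 and Tial1 in 19 of 22.

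**Figure D1:**
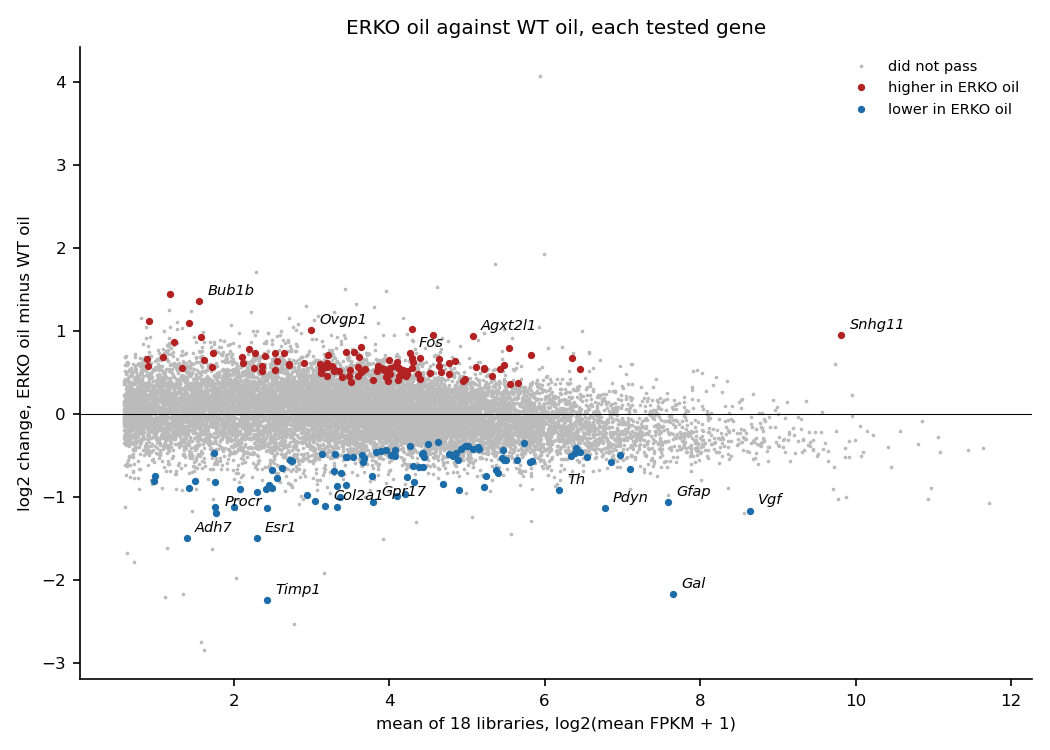
Log2 change, ERKO oil minus WT oil, on the y axis against mean expression over the 18 libraries on the x axis, log2(mean FPKM + 1); each point is 1 of 14772 genes. Red points are the 112 genes past the threshold and higher in ERKO oil, blue the 101 lower ones; Timp1 (−2.24) and Gal (−2.17) lie lowest among the coloured points, and Bub1b (1.36) and Snhg11 (0.95) are labelled among the higher ones.

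The targeted gene was measured first. Esr1, which encodes ERα, read 5.38, 6.92 and 11.9 FPKM in WT oil against 1.62, 2.39 and 2.27 in ERKO oil. The groups did not overlap, and the WT libraries spread more widely than the ERKO ones. The mean fell 3.85-fold, from 8.05 ± 3.39 to 2.10 ± 0.416 FPKM (SD, n = 3), with a log2 change of −1.49 ± 0.32 (SE, limma adjusted p = 0.0366). Remaining Esr1 reads in ERKO libraries show only that some transcript of the gene was counted, since FPKM per gene does not say which exons were read. KIKO oil libraries lay at 2.91, 4.08 and 3.94 FPKM, all above the ERKO oil values. Without any 1 of the 6 oil libraries, or with a pseudocount of 0.1, the Esr1 call was lost as it was with the replicate block (highest adjusted p over the alternatives 0.160).

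Promoter windows of 6 genes among those that fell or rose are printed here because the title of the series asks about response elements. Each window runs from 250 bases before to 50 bases after a RefSeq start on build GRCm38.p6, 5′ to 3′ on the gene's strand, with matches to the cyclic AMP response element TGACGTCA or the AP-1 site TGANTCA in capitals. The 6 were picked after their values were seen; Gal and Timp1 had the largest falls, and the windows of the other 4 hold a match.
Gal, chr19:3414495-3414794, minus strand: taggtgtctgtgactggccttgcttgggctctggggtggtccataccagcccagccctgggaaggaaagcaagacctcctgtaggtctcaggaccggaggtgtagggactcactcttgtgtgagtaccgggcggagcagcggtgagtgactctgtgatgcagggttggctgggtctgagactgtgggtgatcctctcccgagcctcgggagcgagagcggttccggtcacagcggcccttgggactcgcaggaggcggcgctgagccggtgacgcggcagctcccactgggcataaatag
Timp1, chrX:20869916-20870215, plus strand: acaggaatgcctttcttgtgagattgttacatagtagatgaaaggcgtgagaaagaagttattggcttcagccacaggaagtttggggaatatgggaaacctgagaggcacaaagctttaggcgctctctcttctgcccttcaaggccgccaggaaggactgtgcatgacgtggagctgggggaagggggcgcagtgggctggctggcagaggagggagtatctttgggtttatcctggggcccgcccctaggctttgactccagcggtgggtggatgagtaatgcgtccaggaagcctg
Th, chr7:142899946-142900245, minus strand: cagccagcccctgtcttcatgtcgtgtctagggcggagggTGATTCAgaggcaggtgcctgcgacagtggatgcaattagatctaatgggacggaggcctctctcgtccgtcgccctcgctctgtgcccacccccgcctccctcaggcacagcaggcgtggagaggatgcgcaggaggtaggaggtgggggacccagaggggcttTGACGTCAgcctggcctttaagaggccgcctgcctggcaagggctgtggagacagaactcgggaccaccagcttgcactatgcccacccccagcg
Procr, chr2:155750967-155751266, plus strand: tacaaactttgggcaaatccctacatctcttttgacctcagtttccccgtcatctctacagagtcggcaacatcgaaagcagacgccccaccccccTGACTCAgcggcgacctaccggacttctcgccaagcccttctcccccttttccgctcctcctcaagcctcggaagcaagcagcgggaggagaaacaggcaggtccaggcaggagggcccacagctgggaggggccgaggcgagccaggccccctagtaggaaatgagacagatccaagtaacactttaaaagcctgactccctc
Adh7, chr3:138217523-138217822, plus strand: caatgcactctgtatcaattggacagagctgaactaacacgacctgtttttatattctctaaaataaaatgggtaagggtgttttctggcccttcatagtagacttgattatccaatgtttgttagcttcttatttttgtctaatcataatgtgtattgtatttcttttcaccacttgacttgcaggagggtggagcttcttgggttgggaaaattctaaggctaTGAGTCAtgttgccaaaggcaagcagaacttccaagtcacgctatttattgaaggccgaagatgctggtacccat
Ovgp1, chr3:105973552-105973851, plus strand: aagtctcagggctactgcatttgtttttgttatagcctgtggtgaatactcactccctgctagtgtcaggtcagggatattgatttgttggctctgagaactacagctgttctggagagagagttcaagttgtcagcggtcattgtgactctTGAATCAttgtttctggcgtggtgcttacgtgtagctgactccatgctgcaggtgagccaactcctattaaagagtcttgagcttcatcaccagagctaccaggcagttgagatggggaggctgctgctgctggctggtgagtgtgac
The Gal and Timp1 windows held neither capitalised motif nor the palindromic estrogen response element, GGTCA and TGACC with 3 bases between them. In Th, which encodes the rate-limiting enzyme of dopamine synthesis, TGACGTCA began 45 bases and an AP-1 match 210 bases upstream of the start. AP-1 matches began 154 bases upstream in Procr, 25 in Adh7 and 98 in Ovgp1, the last being a gene that rose.

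Across the tested genes, 10398 had such a window, among them 79 of the 112 higher and 72 of the 101 lower genes. A gene counted as matched if any of its windows held a match. The palindromic estrogen response element, searched like all motifs on both strands, occurred in 1 gene of the 10398 (0.00962%) and in none of the 79 or the 72. Its arm GGTCA alone, which the full element contains, occurred in 42.2% of tested genes, 35.4% of the higher and 36.1% of the lower genes. TGACGTCA occurred in 3.49%, 1.27% and 4.17% of these sets, and TGANTCA in 6.20%, 10.1% and 9.72%. Over all 32851 windows the shares were 0.0700% for the full element, 40.5% for its arm, 1.79% for TGACGTCA and 7.81% for TGANTCA. These are shares of windows and not of genes, so they cannot be compared directly with the shares above. A match or its absence describes these letters in this window only.

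Among secreted neuropeptides and granins, Gal, Vgf and Pdyn fell. Gal, which encodes the peptide galanin, read 475, 324 and 378 FPKM in WT oil and 72.2, 108 and 79.6 in ERKO oil. Every ERKO library lay below every WT library, and the mean fell 4.53-fold, from 392 ± 76.4 to 86.5 ± 18.9 FPKM (log2 −2.17 ± 0.28, adjusted p = 0.00815). The call was lost only without ERKO oil replicate 3 among 22 alternatives. KIKO oil lay between, at 134, 135 and 165 FPKM.

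Vgf, a secreted precursor of neuropeptides stored in dense-core granules, read 738, 650 and 605 FPKM in WT oil and 283, 313 and 290 in ERKO oil. The groups were far apart relative to their spread (664 ± 67.8 against 295 ± 15.7 FPKM; log2 −1.16 ± 0.17, adjusted p = 0.0124). Pdyn, the precursor of dynorphin, read 193, 132 and 190 FPKM in WT oil and 68.0, 80.9 and 80.6 in ERKO oil. Its log2 change was −1.14 ± 0.24 (adjusted p = 0.0360), and KIKO oil lay at 128, 120 and 165 FPKM, clear of the ERKO range. The Pdyn change was −1.02 after a correction for transcript length and GC, where its adjusted p was 0.0966.

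The list of kisspeptin-neuron and other reproductive peptides and receptors held 22 tested genes, of which 0 rose and 2 (Gal and Pdyn) fell, with a median log2 change of −0.05, against 0.018 over all genes tested. Kiss1, which encodes kisspeptin, read 520, 360 and 419 FPKM in WT oil and 265, 280 and 370 in ERKO oil. These ranges overlapped, and Kiss1 did not pass (log2 −0.50 ± 0.32, adjusted p = 0.360; −0.084 after the length and GC correction). Tac2, the precursor of neurokinin B, read 1417, 1074 and 1278 FPKM in WT oil and 585, 589 and 858 in ERKO oil. Its groups did not overlap, yet it missed the threshold (−0.91 ± 0.24, adjusted p = 0.0604) and reached it without ERKO E2 3 in the fit (0.0105), while the length and GC correction brought it to −0.58 (adjusted p = 0.231). The neurokinin B receptor gene Tacr3 was at 13.2 ± 4.80 and 7.19 ± 0.504 FPKM (−0.73 ± 0.21, adjusted p = 0.0762).

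Feeding peptides and releasing hormones gave 0 rises and 1 fall (Gal) among 23 tested genes, with a median log2 change of −0.51. Without ERKO E2 3 in the fit 6 of the 23 fell, where 10.5% of all genes tested fell. Pomc, the precursor of α-MSH and β-endorphin, read 1418, 1162 and 1232 FPKM in WT oil and 663, 596 and 618 in ERKO oil. This was a separation of 2.03-fold between means without overlap, and the log2 change of −1.02 ± 0.25 had an adjusted p of 0.0540. Pomc reached the threshold in 9 of 22 alternatives, among them the fit without ERKO E2 3 (adjusted p = 0.00258). With the length and GC correction its change shrank to −0.61 (adjusted p = 0.0456). Ghrh, which encodes growth hormone-releasing hormone, lay at 127 ± 3.30 and 81.7 ± 7.68 FPKM without overlap (−0.63 ± 0.26, adjusted p = 0.180), and at −0.19 after that correction (adjusted p = 0.360).

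The remaining panel peptides were lower in every ERKO oil library than in any WT oil library, yet none passed. Sst, encoding somatostatin, lay at 1332 ± 188 and 936 ± 32.6 FPKM, and Cartpt, encoding CART, at 522 ± 33.7 and 361 ± 25.9. Npy, encoding neuropeptide Y, lay at 915 ± 36.7 and 632 ± 167 FPKM, and Agrp, encoding an antagonist of melanocortin receptors, at 179 ± 17.5 and 128 ± 35.2. Their log2 changes ran from −0.57 for Npy to −0.50 for Sst, with adjusted p from 0.179 for Sst to 0.366 for Agrp. The length and GC correction shrank each of these changes, to −0.25 for Cartpt, −0.19 for Npy, −0.11 for Sst and −0.098 for Agrp. As bulk tissue was measured, fewer cells of a type and less RNA per cell cannot be told apart in any of these values.

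**Figure D2:**
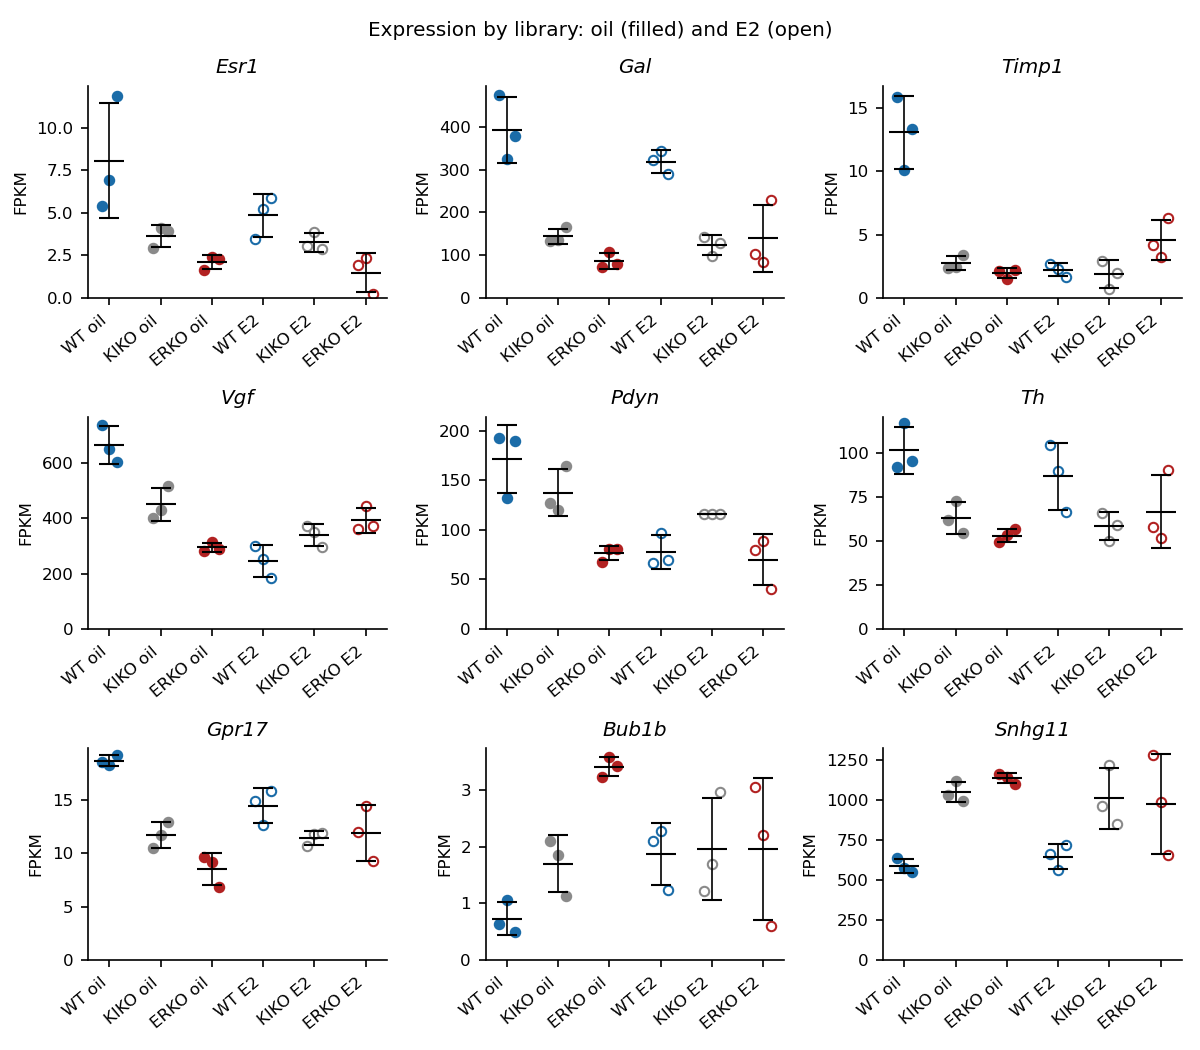
FPKM (y axis, linear, from 0) of 9 genes in each of the 18 libraries, by group on the x axis; points are libraries, filled for oil and open for E2, and the bars show the mean and SD of 3. Gal lies at 72.2 to 108 FPKM in ERKO oil against 324 to 475 in WT oil, whereas Timp1 is at 10.1 to 15.8 FPKM in WT oil and at 6.28 or below in all other groups.

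Genes of dopamine synthesis and prolactin signalling gave 0 rises and 2 falls among 20 tested members, at a median of −0.21. Th read 92.1, 117 and 95.1 FPKM in WT oil and 49.2, 53.1 and 56.5 in ERKO oil. The groups were clearly apart and the mean fell 1.92-fold (log2 −0.92 ± 0.20, adjusted p = 0.0366), while KIKO oil, at 61.8, 72.6 and 54.7, overlapped the ERKO range. The length and GC correction took Th to −0.72 (adjusted p = 0.0503). Cish, a STAT5-induced inhibitor of cytokine receptor signalling, fell from 9.81 ± 1.39 to 4.51 ± 0.876 FPKM (−0.98 ± 0.18, adjusted p = 0.0274). The prolactin receptor gene Prlr did not differ beyond its spread, at 9.53 ± 2.64 and 9.64 ± 0.831 FPKM, and the sign of its log2 change (0.05 ± 0.18) turned with the scaling, to −0.45 with an adjusted p of 0.0374 after the length and GC correction. Slc6a3, the dopamine transporter gene, was at 5.44 ± 1.98 and 4.19 ± 0.845 FPKM, with overlapping groups.

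Of 21 tested genes on the list of estrogen-responsive genes, 0 rose and 1 (Vgf) fell, with a median of −0.21. Pgr, the progesterone receptor gene, read 3.29, 4.59 and 5.44 FPKM in WT oil and 4.75, 4.70 and 5.52 in ERKO oil, and these ranges overlapped (0.16 ± 0.19, adjusted p = 0.640). Greb1, a cofactor of ERα, was at 0.475 ± 0.222 and 0.266 ± 0.0836 FPKM (adjusted p = 0.358). Of 18 tested estrogen receptors and coregulators, 1 rose (Med1) and 1 fell (Esr1), at a median of 0.18. Med1, a Mediator subunit that contacts nuclear receptors, went from 10.6 ± 0.747 to 14.4 ± 0.479 FPKM (0.41 ± 0.09, adjusted p = 0.0425), but was at 0.11 after the length and GC correction (adjusted p = 0.720). None of 21 steroid and other nuclear receptors passed (median 0.16), the lowest p being that of Rorb, at 8.02 ± 1.76 and 13.9 ± 1.99 FPKM (adjusted p = 0.0788), with a log2 change of 0.74 that the length and GC correction took to 0.30.

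The largest fall among all named genes was that of Timp1, an inhibitor of matrix metalloproteinases. It read 15.8, 10.1 and 13.3 FPKM in WT oil and 2.12, 1.5 and 2.23 in ERKO oil. All ERKO libraries were below a level of 2.24 FPKM and no WT library below 10.1, and the mean fell 6.72-fold (log2 −2.24 ± 0.27, adjusted p = 0.00697). KIKO oil, at 2.40, 2.43 and 3.4 FPKM, lay near the ERKO level. Among 47 collagen and matrix genes, 0 rose and 2 fell (Timp1 and Mmp14), at a median of −0.06. Mmp14, a membrane-bound metalloproteinase, went from 14 ± 1.07 to 9.53 ± 1.35 FPKM (−0.52 ± 0.10, adjusted p = 0.0325), and to −0.43 with the length and GC correction (adjusted p = 0.0643). Col2a1, a fibrillar collagen gene outside that list, went from 9.65 ± 2.09 to 3.88 ± 0.366 FPKM (−1.11 ± 0.21, adjusted p = 0.0274).

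Several receptor genes fell. Procr, the endothelial protein C receptor gene, read 5.83, 5.26 and 5.58 FPKM in WT oil and 2.06, 1.60 and 2.01 in ERKO oil, with narrow spread in both groups (−1.19 ± 0.24, adjusted p = 0.0325). Tnfrsf12a, the receptor for the cytokine TWEAK, went from 13.8 ± 1.42 to 5.85 ± 1.19 FPKM (−1.12 ± 0.19, adjusted p = 0.0244; −0.73 after the length and GC correction, adjusted p = 0.0341). Ngfr, the low-affinity neurotrophin receptor gene, was the single member of 31 neurotrophin and growth factor genes to pass (0 rose, 1 fell, median −0.12), at 3.29 ± 1.21 and 1.38 ± 0.143 FPKM (adjusted p = 0.0325, and 0.0874 after that correction). Npr3, the natriuretic peptide clearance receptor gene, went from 3.06 ± 1.28 to 1.12 ± 0.116 FPKM (adjusted p = 0.0463), and the authors' tables mark its entry as failed in WT oil 1 and 2. None of 35 energy balance receptors passed (median −0.03). Npr3 was named after its values were seen, as were Id1, Id3, Hes5, Luc7l3, Prpf39, Bbs5, Ttc8, Rpgr and Tmem67 below.

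Falls among enzymes and chromatin genes included weakly expressed genes. Adh7, an alcohol dehydrogenase active on retinol, read 2.33, 3.61 and 4.86 FPKM in WT oil and 0.456, 0.541 and 0.781 in ERKO oil (−1.5 ± 0.26, adjusted p = 0.0244). Its ERKO values were all below 1 FPKM, and KIKO oil spread from 0.641 to 2.90. Phospho1, a phosphatase known from mineralizing tissue, went from 3.47 ± 0.405 to 1.09 ± 0.540 FPKM (adjusted p = 0.0244, and 0.0654 after the length and GC correction). The histone entries Hist2h3b and Hist3h2bb-ps went from 7.08 ± 2.22 to 2.63 ± 0.641 and from 5.84 ± 2.43 to 2.04 ± 0.495 FPKM (adjusted p = 0.0347 and 0.0429). Histone genes have near-identical copies whose reads the counting could split, so these 2 values are uncertain, and the length and GC correction brought them to −0.48 and −0.67 (adjusted p = 0.454 and 0.243).

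Among glial marker lists, that of oligodendrocyte precursors had the most falls. Gpr17, a receptor of differentiating oligodendrocyte precursors, read 18.6, 18.3 and 19.3 FPKM in WT oil and 9.62, 9.15 and 6.83 in ERKO oil. The WT libraries agreed closely, and the mean fell 2.19-fold (−1.06 ± 0.14, adjusted p = 0.0105). Of 11 tested precursor markers, 0 rose and 3 fell (Gpr17, Olig1 and Olig2), at a median of −0.43, and their summed level ran from 181 to 206 FPKM in WT oil and from 138 to 139 in ERKO oil. Olig2 and Olig1, transcription factors of the oligodendrocyte lineage, went from 15.8 ± 0.763 to 10.7 ± 1.07 FPKM (−0.53 ± 0.10, adjusted p = 0.0274) and from 95.3 ± 9.78 to 66.5 ± 1.40 FPKM (−0.51 ± 0.12, adjusted p = 0.0472). With the length and GC correction Gpr17 passed at −1.10, while Olig2 and Olig1 were at −0.31 and −0.19 (adjusted p = 0.233 and 0.259). None of 15 mature oligodendrocyte markers passed (median −0.26), with Cnp at 172 ± 20.5 and 120 ± 5.02 FPKM (adjusted p = 0.0725).

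Gfap, the intermediate filament of astrocytes and tanycytes, read 261, 359 and 277 FPKM in WT oil and 148, 147 and 129 in ERKO oil. It fell 2.11-fold (−1.06 ± 0.20, adjusted p = 0.0279) as the single member of 12 astrocyte markers to pass (median −0.10). Id1 and Id3, inhibitors of basic helix-loop-helix factors, went from 24.4 ± 1.30 to 12.1 ± 3.13 and from 47.7 ± 13.7 to 24.8 ± 3.73 FPKM (adjusted p = 0.0157 and 0.0366). Hes5, a Notch target of neural progenitors and glia, went from 22.5 ± 5.12 to 10.9 ± 1.97 FPKM (adjusted p = 0.0472). None of these 4 genes passed with the length and GC correction, where Gfap was at −0.90, Id1 at −0.68, Id3 at −0.57 and Hes5 at −0.53 (adjusted p = 0.0511, 0.0760, 0.214 and 0.199). Id3 and Hes5 did not pass with it even without ERKO E2 3 in the fit (0.0960 and 0.0661). Tanycyte markers gave 0 calls of 13 (median −0.24), with Vim at 114 ± 5.73 and 81.8 ± 9.22 FPKM (adjusted p = 0.147), and microglial markers 0 of 12 (median −0.30).

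Neuronal genes moved in both directions. Gabrb2, a subunit of the GABA-A receptor, rose from 11.3 ± 1.25 to 17.4 ± 1.5 FPKM (0.58 ± 0.12, adjusted p = 0.0325). The list of 46 GABA and glutamate genes gave 2 rises, 0 falls and a median of 0.20. Of 41 genes of synaptic vesicles and release, 1 rose and 2 fell, at a median of 0.06. The riser was Nrxn3, a presynaptic adhesion molecule (28.7 ± 3.74 and 42.5 ± 0.961 FPKM, adjusted p = 0.0347). The fallers were Syt12, a synaptotagmin (7.70 ± 0.671 and 4.87 ± 0.291 FPKM, adjusted p = 0.0274), and Nxph3, a ligand of α-neurexins (7.15 ± 1.51 and 3.30 ± 0.141 FPKM, adjusted p = 0.0472). Nefm, the medium neurofilament subunit, read 25.1, 24.9 and 25.4 FPKM in WT oil and 16.1, 16.0 and 15.8 in ERKO oil, and was the 1 fall among 23 cytoskeletal genes (0 rises, median −0.18, adjusted p = 0.0366). With the length and GC correction Gabrb2, Syt12 and Nefm were at 0.42, −0.46 and −0.49 (adjusted p = 0.0901, 0.0503 and 0.0976). Nrxn3 and Nxph3, at 0.28 and −0.60, did not pass with it even without ERKO E2 3 in the fit.

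Activity-regulated genes split as well. Fos, an AP-1 subunit induced by neuronal activity, read 14.9, 17.0 and 13.3 FPKM in WT oil and 21.0, 30.6 and 26.0 in ERKO oil. It rose without overlap (0.73 ± 0.17, adjusted p = 0.0434), and its change was 0.88 after the length and GC correction. Jun, its dimer partner, fell from 35.0 ± 2.46 to 25.0 ± 1.09 FPKM (−0.47 ± 0.11, adjusted p = 0.0438). These were the 2 calls among 26 immediate early genes, whose median was −0.03. With that correction Jun was at −0.36 and did not pass (adjusted p = 0.133). Both calls were lost in each of the 6 fits without 1 oil library, and that of Fos also with no filter and with median-of-ratios scaling.

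The largest rise by rule was that of Bub1b. It read 0.641, 1.06 and 0.486 FPKM in WT oil and 3.23, 3.58 and 3.43 in ERKO oil, a level low in both groups but 4.68-fold apart in the means. The log2 change was 1.36 ± 0.29 (adjusted p = 0.0366), KIKO oil lay between at 1.13 to 2.10 FPKM, and the call was lost in each of the 6 fits without 1 oil library. Ovgp1, the oviductal glycoprotein gene, read 4.37, 4.22 and 2.58 FPKM in WT oil and 9.35, 8.24 and 7.64 in ERKO oil (1.01 ± 0.16, adjusted p = 0.0185). KIKO oil, at 7.66 to 8.28 FPKM, overlapped the ERKO libraries. Snhg11, a long non-coding host transcript of small nucleolar RNAs, was the most abundant named riser. It read 637, 577 and 549 FPKM in WT oil and 1161, 1143 and 1101 in ERKO oil, with tight groups (0.95 ± 0.20, adjusted p = 0.0347). The Snhg11 call was also lost in each of the 6 fits without 1 oil library, and with the replicate block. Its change was 0.70 after the length and GC correction (adjusted p = 0.0337).

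Agxt2l1, which encodes ethanolamine-phosphate phospho-lyase, went from 20.0 ± 3.38 to 39.1 ± 6.36 FPKM (0.94 ± 0.17, adjusted p = 0.0272). Tial1, an RNA-binding protein of stress granules, read 46.2, 40.5 and 41.6 FPKM in WT oil and 66.1, 66.6 and 79.5 in ERKO oil (0.71 ± 0.10, adjusted p = 0.0126; 0.47 after the length and GC correction, adjusted p = 0.0456). The splicing-related genes Luc7l3 and Prpf39 went from 59.2 ± 3.87 to 95.0 ± 9.29 and from 17.6 ± 1.48 to 28.3 ± 0.985 FPKM (adjusted p = 0.0325 and 0.0347). The correction took them from 0.67 to 0.38 and from 0.66 to 0.36 (adjusted p = 0.201 and 0.0901), and Luc7l3 did not pass with it without ERKO E2 3 either (0.0653). Neil2, a DNA glycosylase, went from 2.39 ± 0.722 to 4.55 ± 0.251 FPKM (adjusted p = 0.0425), and Elmod2, a GTPase-activating protein, from 6.01 ± 0.211 to 10.5 ± 0.0716 (adjusted p = 0.0244). Gin1 and Pgbd1, which derive from transposable elements, went from 2.89 ± 0.615 to 5.45 ± 0.567 and from 1.40 ± 0.611 to 2.93 ± 0.136 FPKM (adjusted p = 0.0252 and 0.0366). With the correction Elmod2 went from 0.72 to 0.43, and Elmod2, Neil2 and Pgbd1 did not pass (adjusted p = 0.0503, 0.0503 and 0.0966).

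Of 8 further risers, 4 were named for their rank and 4 after their values were seen. Ttc18 (2.45 ± 0.626 and 4.90 ± 0.303 FPKM), Cep70 (7.22 ± 0.951 and 12.8 ± 0.332), Odf2l (7.53 ± 0.659 and 13.3 ± 0.760) and Sclt1 (3.60 ± 0.781 and 6.61 ± 0.180) rose by 0.74 to 0.79 on the log2 scale. The ciliopathy genes Bbs5, Ttc8, Rpgr and Tmem67 were at 11, 18, 10.7 and 8.27 FPKM in WT oil and at 16.4, 27.2, 15.7 and 12.4 in ERKO oil, and each passed. With the length and GC correction Ttc18 and Tmem67 passed and the other 6 did not: Cep70 (adjusted p = 0.103), Odf2l (0.0643), Sclt1 (0.0621), Bbs5 (0.110), Ttc8 (0.0536) and Rpgr (0.0557), the last going from 0.52 to 0.33. They form no list of their own, and the ependymal and cilium markers gave 0 calls of 14 (median 0.17). Among the 112 higher genes 22 carried clone names (such as Rik or Gm names), against 1 of the 101 lower genes and 1513 of the 14772 tested.

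GC content and length of the transcript moved with these directions. The median transcript GC was 43.0% for the 112 higher genes, 57.0% for the 101 lower genes and 49.9% for all tested, and the median length 4054, 2615 and 3354 bases. From the lowest to the highest GC quintile the median log2 change over all genes with a transcript was 0.24, 0.13, 0.015, −0.09 and −0.20. The lowest quintile held 68 higher and 3 lower calls, and the highest quintile 1 higher and 64 lower. Within single libraries, the median deviation of the highest minus that of the lowest GC quintile was 0.44, 0.15 and 0.05 in WT oil, −0.25, −0.16 and −0.28 in ERKO oil, and −0.07 to 0.05 in KIKO oil. The ERKO oil libraries thus all lay below the WT oil and KIKO oil libraries, and WT oil 1 stood farthest from zero.

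**Figure D3:**
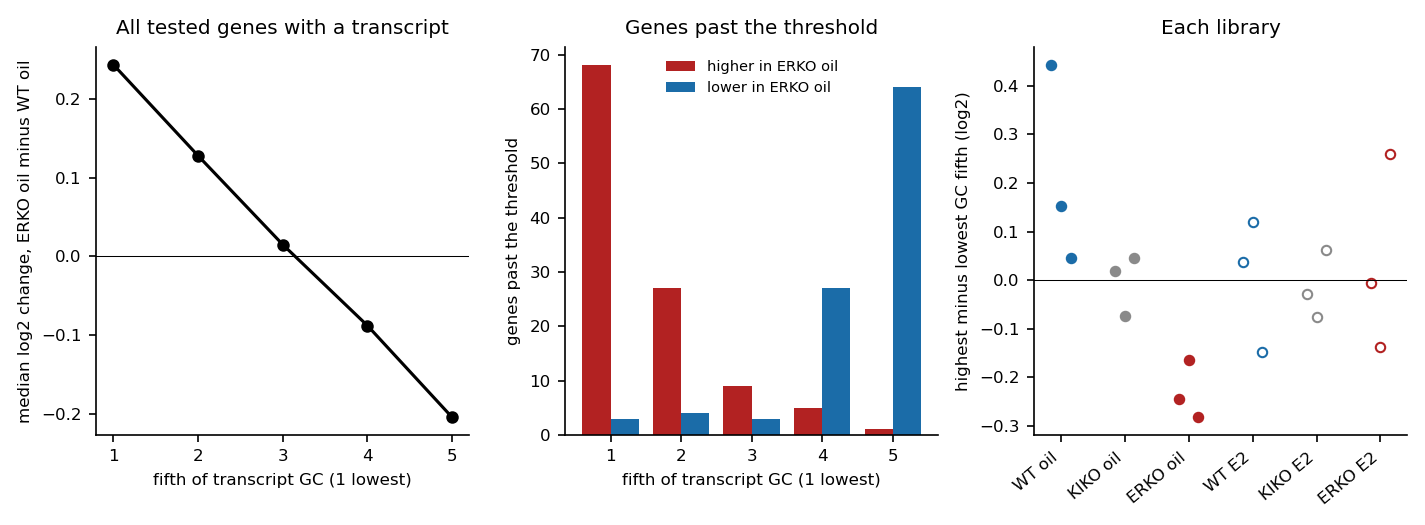
Left, median log2 change (ERKO oil minus WT oil) by quintile of transcript GC, falling from 0.24 to −0.20. Middle, number of genes past the threshold in each quintile, from 68 higher and 3 lower in the lowest to 1 higher and 64 lower in the highest; right, the median deviation of the highest minus the lowest GC quintile for each library by group, filled for oil and open for E2, between −0.28 and −0.16 in ERKO oil.

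With a smooth trend on length and GC removed from each library, 81 genes passed, 46 higher and 35 lower, and 41 of them were among the 213. Of the 63 genes named here that passed, 20 passed with the correction, and 48 with the correction and without ERKO E2 3 in the fit, where 1118 genes passed in all. Timp1, Gal, Vgf, Procr, Adh7, Esr1, Gpr17, Col2a1, Tnfrsf12a, Cish, Bub1b, Ovgp1, Snhg11, Tial1 and Fos were among the 20. Their corrected log2 changes ran from −1.94 for Timp1 to 1.35 for Bub1b. What part GC, length or depth has in the uncorrected changes was not tested.

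Housekeeping lists shifted downward without calls. None of 68 nuclear genes of the respiratory chain passed, with a median of −0.30, and 33 fell and 0 rose without ERKO E2 3 in the fit. None of 59 ribosomal protein genes passed, also at a median of −0.30, with 19 falls and 0 rises without ERKO E2 3. In that fit 10.5% of all genes tested fell and 11.9% rose. Cyc1, a subunit of complex III, read 146, 131 and 129 FPKM in WT oil and 98.5, 101 and 100 in ERKO oil (adjusted p = 0.0751), and its log2 change of −0.44 became −0.077 with the length and GC correction. After the length and GC correction the 2 medians were −0.11 and −0.09. Interferon and MHC class I genes gave 0 rises and 1 fall of 31 (median −0.36): H2-D1 went from 67.5 ± 3.37 to 45.3 ± 1.00 FPKM (−0.56, adjusted p = 0.0366), or to −0.34 with the correction (adjusted p = 0.233, and 0.102 without ERKO E2 3), and reads of this gene may be shared with close class I copies.

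Of the 22 pathway lists 9 had no call, and of the 22 marker lists 18. Beside those described, prohormone processing genes gave 0 rises and 1 fall (Vgf) of 21 (median −0.02). Heat shock genes gave 0 of 28 (median −0.20), clock genes 0 of 21 (0.22), potassium channels 0 of 34 (0.12), other cation channels 0 of 36 (0.25) and sterol genes 0 of 20 (0.05). Without ERKO E2 3 in the fit, 11.9% of all genes tested rose and 10.5% fell. In that fit clock genes had 8 rises and 1 fall, and heat shock genes 0 rises and 11 falls. Other cation channels had 12 rises and 4 falls, and potassium channels 2 and 3. Prohormone processing genes had 2 rises and 3 falls, and sterol genes 1 and 3. Clock genes had a median of 0.29 after the length and GC correction. In the sterol list Hmgcs1 was listed at 0 in both oil groups, where an exact 0 can be a failed estimate.

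Arcuate neuron markers as a list gave 0 rises and 2 falls (Esr1 and Th) of 14, with a median of −0.55, against 0 calls of 10 general neuronal markers at a median of 0.00. Both medians are uncorrected, and the arcuate list holds the targeted gene Esr1. The length and GC correction shrank Kiss1 to −0.084, Agrp to −0.098, Npy and Ghrh to −0.19 and Cartpt to −0.25. Tac2 shrank to −0.58, Pomc to −0.61 and Th to −0.72. Esr1 and Prlr moved the other way, to −1.76 and from 0.05 to −0.45. The summed level of the 14 was 4590 to 5320 FPKM in WT oil, 2921 to 3018 in ERKO oil and 3298 to 4167 in KIKO oil. Markers of neighbouring regions varied between libraries: Avp read 4581, 4266 and 2532 FPKM in WT oil and 907, 2030 and 2901 in ERKO oil, and Oxt 2684, 2714 and 1915 against 836, 1429 and 1391. Neither passed (adjusted p = 0.218 and 0.206), and the correction took them from −1.07 to −0.47 and from −1.02 to −0.51. The part of these levels in the peptide values was not tested.

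Other regional lists gave few calls. Suprachiasmatic markers gave 0 of 8 at a median of 0.77, summing to 110 to 268 FPKM in WT oil and 258 to 300 in ERKO oil. Lateral hypothalamic markers gave 1 fall (Pdyn) of 9 (median −0.17). Ventromedial, dorsomedial, mammillary, premammillary, and paraventricular and supraoptic markers gave 0 calls of 10, 6, 5, 6 and 7, with medians of −0.08, 0.10, −0.28, −0.06 and 0.05. Telencephalic, choroid plexus and pituitary markers gave 0 of 5, 6 and 10 (medians −0.07, −0.07 and −0.24). Endothelial, mural and leptomeningeal markers gave 0 of 11, 9 and 8 (medians −0.16, −0.02 and −0.43). Blood genes gave 0 of 6 (median −0.79). Over the listed blood genes with a matched symbol, tested or not, the sum ran from 447 to 1725 FPKM in WT oil and from 377 to 522 in ERKO oil.

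**Figure D4:**
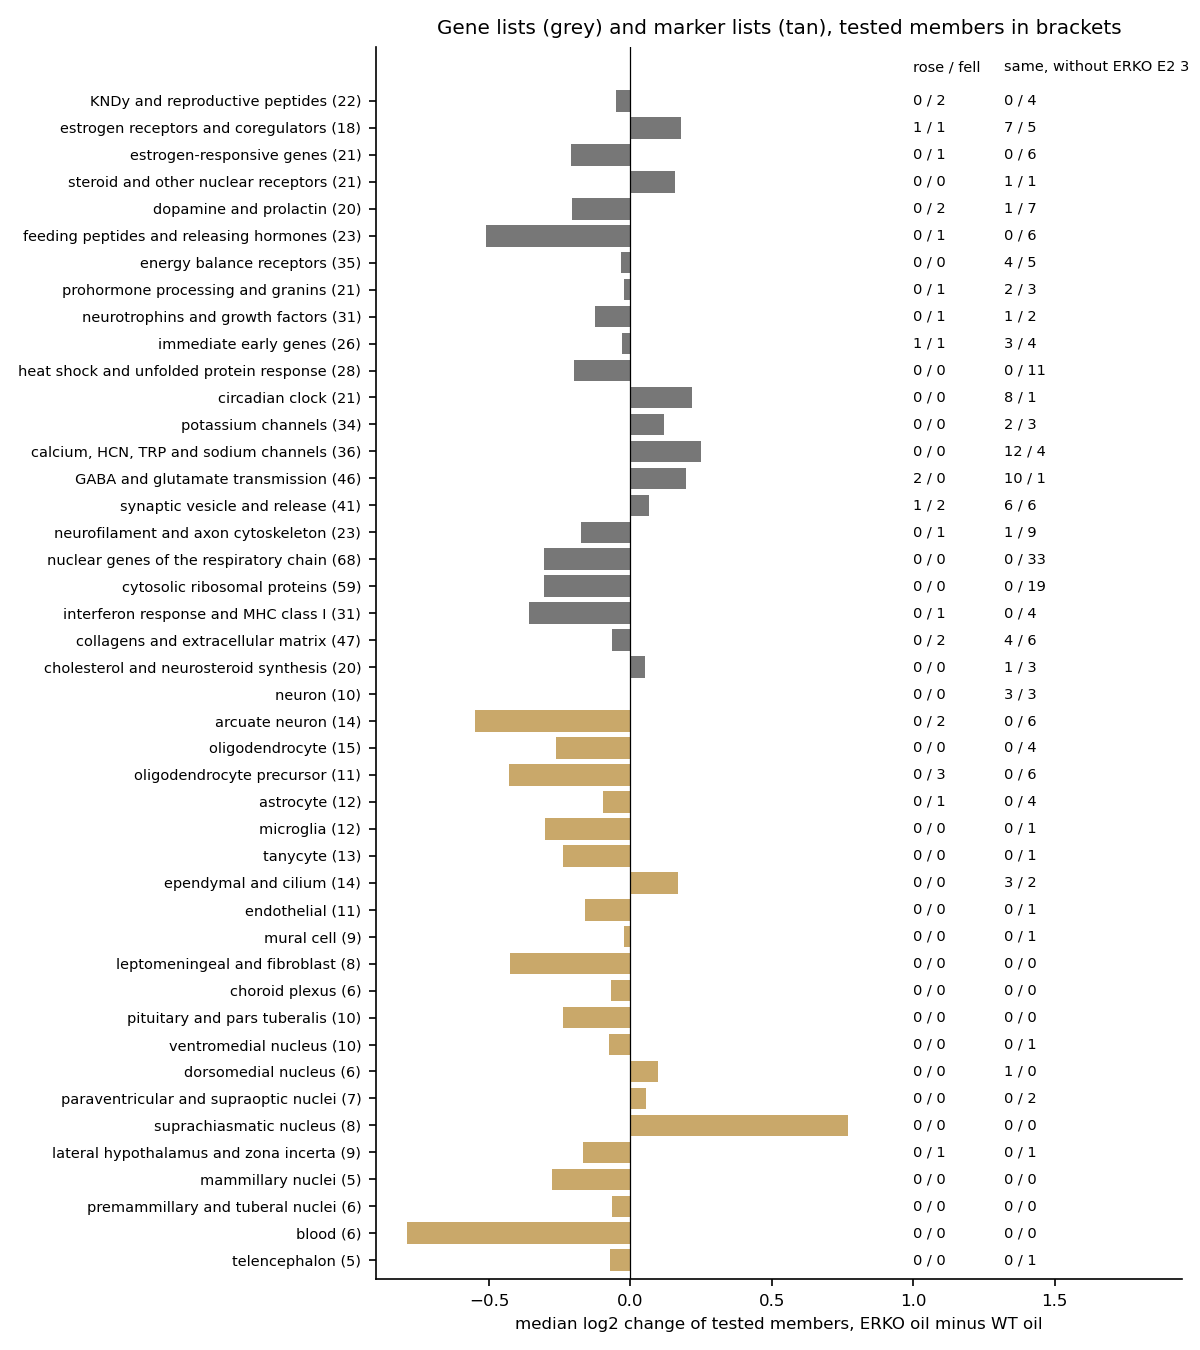
Median log2 change (x axis), ERKO oil minus WT oil, of the tested members of 22 gene lists (grey) and 22 marker lists (tan), with the number of members tested in brackets; the 2 columns give members that rose and fell with all libraries and without ERKO E2 3 in the fit. Without the length and GC correction, arcuate neuron markers lie at −0.55 with 0 rises and 2 falls, and respiratory chain genes at −0.30 with 0 falls that become 33. In the fit without ERKO E2 3, 10.5% of all genes tested fell.

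KIKO mice under oil share with ERKO mice the lack of a normal receptor, and the direct test of ERKO oil against KIKO oil asks what the remaining KIKO receptor adds. No gene passed (0 of 14772, limma, lowest adjusted p 0.998), and 340 genes (2.30%) had an unadjusted p under 0.05. The differences with the smallest p among the peptides were those of Vgf (ERKO lower, −0.60 ± 0.17, unadjusted p = 0.00235) and Pdyn (−0.83 ± 0.24, unadjusted p = 0.00344). Gal was at −0.75 ± 0.28 and Kiss1 at −0.70 ± 0.32 (unadjusted p = 0.0177 and 0.0415), and Kiss1 in KIKO oil read 482, 378 and 651 FPKM. Timp1 and Esr1 were at −0.34 ± 0.27 and −0.59 ± 0.32. Since none passed, these values give the size of each difference and its error, and do not show that the mutants were alike. The same ERKO oil libraries serve both comparisons.

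The 6 E2 libraries of WT and ERKO gave the genotype difference again in samples that the oil comparison does not hold, although they share its estimate of spread. There 192 genes passed (1.30%), 40 higher (0.271%) and 152 lower (1.03%). Of the 112 genes higher under oil, 90 (80.4%) had the same sign under E2, and of the 101 lower genes 77 (76.2%), against 51.5% of all genes tested. The median log2 change under E2 was 0.13 for the higher and −0.14 for the lower genes, compared with 0.56 and −0.58 under oil. The genes were chosen by their oil values, which tends to make the oil medians larger. The E2 medians also include ERKO E2 3. Its median deviation of the highest minus the lowest length quintile was −1.11, against 0.23 and 0.29 in ERKO E2 1 and 2. Without ERKO E2 3, 1286 genes passed under E2. These medians therefore do not show a smaller genotype difference under E2. Past the threshold in the same direction were 3 of the higher genes (Gabrb2 and 4933432B09Rik among them) and 11 of the lower (Gal, Cish, Col2a1, Npr3, Inhbb, Ngfr, Lrrc38, Ecel1, Tmem90a, Tmem35 and Ak5). The length and GC correction ended further oil calls among these genes. Under oil it left Inhbb, Lrrc38 and Ecel1 at an adjusted p of 0.0898, 0.112 and 0.052. Tmem90a, Tmem35, Ak5 and 4933432B09Rik were at 0.224, 0.104, 0.0901 and 0.117.

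Gal after E2 read 324, 344 and 290 FPKM in WT and 103, 85.0 and 230 in ERKO, again without overlap (−1.33 ± 0.28, adjusted p = 0.0303). The high ERKO value is that of ERKO E2 3. Cish read 9.04, 10.1 and 9.58 FPKM in WT and 4.49, 3.83 and 6.36 in ERKO (−0.86 ± 0.18, adjusted p = 0.0308). Col2a1 read 22.0, 24.7 and 20.0 FPKM in WT and 6.19, 3.17 and 2.36 in ERKO, a wider gap than under oil (−2.32 ± 0.21, adjusted p = 8.88e-06), though the difference between treatments did not pass (−1.21 ± 0.29, adjusted p = 0.119). Ecel1, an endopeptidase of neurons, went from 142 ± 21.3 to 88.2 ± 4.05 FPKM under oil and read 218, 263 and 225 against 108, 92.9 and 98.1 after E2 (−1.23 ± 0.11, adjusted p = 1.19e-05). Inhbb, which encodes the βB subunit of activins and inhibins, went from 6.02 ± 1.43 to 2.85 ± 0.160 under oil and read 7.2, 11.2 and 7.08 against 3.16, 3.47 and 2.19 after E2 (adjusted p = 0.00254).

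Of the genes that fell under oil, some had the other sign under E2. Nxph3 was the 1 gene past the threshold in opposite directions: it read 1.17, 3.17 and 1.90 FPKM in WT E2 and 4.79, 4.64 and 5.16 in ERKO E2 (0.98 ± 0.21, adjusted p = 0.0348). Timp1 read 2.69, 2.31 and 1.68 FPKM in WT E2 and 4.17, 3.21 and 6.28 in ERKO E2, so the WT E2 libraries lay near the ERKO oil level and below every ERKO E2 library (0.76 ± 0.27, adjusted p = 0.261). Vgf read 298, 252 and 184 FPKM in WT E2 and 360, 445 and 373 in ERKO E2 (0.70 ± 0.17, adjusted p = 0.0505). Procr was likewise lower in WT E2 (1.56, 0.893 and 1.11 FPKM) than in ERKO E2 (1.61, 1.81 and 4.76).

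The change of the genotype difference between treatments (E2 minus oil) passed for 41 genes (0.278%), 14 positive (0.0948%) and 27 negative (0.183%). Of the genes that passed under oil, it passed for 1 of the 112 higher and 10 of the 101 lower. It was 3.00 ± 0.38 for Timp1 (adjusted p = 0.00129), 1.86 ± 0.23 for Vgf (0.00106), 1.89 ± 0.30 for Nxph3 (0.00903) and 1.87 ± 0.34 for Procr (0.0243). This test includes the oil values by which these genes were named, so its size for them is not independent of that choice. Kiss1, which did not pass under oil, showed 4.16 ± 0.45 (adjusted p = 0.000241), with 34.8, 58.2 and 20.9 FPKM in WT E2 and 481, 306 and 629 in ERKO E2. Pgr showed −1.97 ± 0.26 (adjusted p = 0.00182), with 13.9, 15.5 and 18.1 FPKM in WT E2 and 4.39, 4.90 and 2.39 in ERKO E2.

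**Figure D5:**
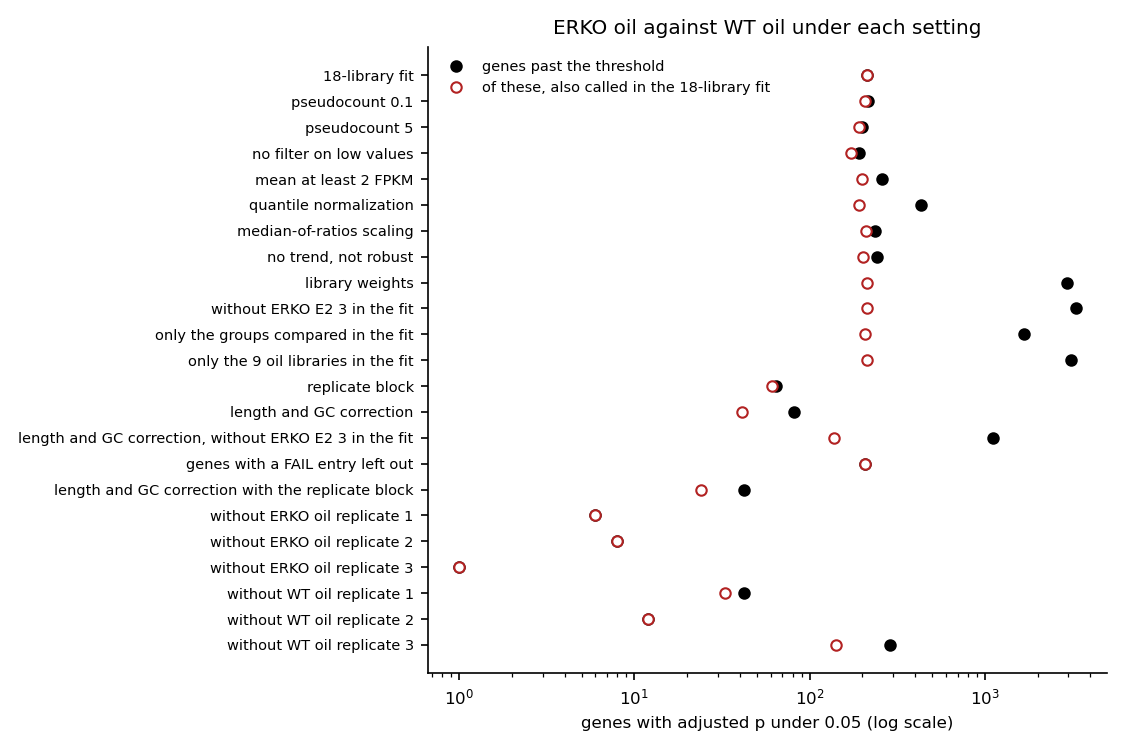
Number of genes with an adjusted p under 0.05 in ERKO oil against WT oil (x axis, log scale) under each setting (y axis); black points are all genes passing and open red points those also among the 213 of the 18-library fit. Counts run from 1 without ERKO oil replicate 3 to 3319 without ERKO E2 3 in the fit.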

How the data were processed

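The authors aligned reads with TopHat2 2.0 and quantified them with Cuffdiff against mm10, per the submitters' processing notes; the annotation is not given in the sources used here. They deposited 1 gene table per library with FPKM values and lower and upper confidence bounds in FPKM. Listed gene starts did not lie on mm10, so no coordinates from the tables are given. The 23699 entries of a table carried 23235 symbols, and values were added up where a symbol occurred more than once. Fragment totals are not in the tables; relative depth over 14103 genes was inferred from the confidence bounds, and 71.2% to 73.9% of implied fragment numbers per library were whole within 0.02. Depth limits the precision of weakly expressed genes.

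The 4 comparisons were fitted with limma 3.58.1 (R 4.3.3; trend and robust variances) on log2(FPKM + 1), with 6 group means over 18 libraries (12 residual degrees of freedom), two-sided tests and Benjamini-Hochberg adjustment over the 14772 genes averaging 0.5 FPKM or more; 59 microRNA and other small RNA genes above that mean were left out. Tables were handled with Python 3.11.15, pandas 2.3.3 and numpy 2.4.6, and plots drawn with matplotlib 3.10.9. Tested on simulated data for ERKO oil against WT oil (14772 genes), the fit recovered 85% of 100 genes given a log2 change of 1 and 97% of 100 given 2, and called 17 unchanged genes. Only genes with a mean log2(FPKM + 1) above 2 were given a change. The simulated noise was independent between genes and libraries, without length or GC trends and without an outlying library. These figures therefore do not describe weakly expressed genes or error rates in the real libraries.

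The comparison, the 44 lists and the rule for named genes were chosen with earlier results of these data known. The rule named Esr1, the 14 largest rises and 14 largest falls past the threshold without overlap, at least 1 FPKM in the higher group and no clone name, at most 5 passing genes per list (otherwise the member with the smallest p) and an arcuate panel; 21 further genes were named after their values were seen. List symbols were matched by current or older name, with 2 unmatched. For 1 gene chosen by the rule, no values are reported here. Transcript length and GC came from the longest GENCODE vM21 transcript of each symbol (98.8% of tested genes), and promoter sequences from RefSeq on GRCm38.p6. Same-numbered ERKO oil and WT oil libraries did not deviate together (correlations of −0.053, 0.093 and −0.025), so the numbers were not taken as pairs. Alternatives changed the pseudocount, filter, scaling, variance model, libraries fitted, replicate block and length and GC correction, or left out 1 library.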

Additional observations from a re-analysis of the deposited data

Results flagged for a closer look

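For 13 named genes the genotype difference (ERKO minus WT) changed between oil and E2 past the threshold of the limma interaction test, among 41 such genes of 14772. The change, E2 minus oil on the log2 scale, was 4.16 for Kiss1, 3.00 for Timp1, 1.89 for Nxph3, 1.87 for Procr, 1.86 for Vgf, 1.83 for Tacr3, 1.44 for Lhfpl1, 0.82 for Ephb3 and 0.73 for Olig2. It was −2.18 for Greb1, −1.97 for Pgr, −1.32 for Lrrc38 and −0.99 for Tmem90a. Lrrc38, a potassium channel accessory subunit, read 3.51, 5.07 and 3.58 FPKM in WT E2 and 0.202, 0.114 and 0.261 in ERKO E2, after 0.967 ± 0.132 and 0.168 ± 0.0709 FPKM under oil. Lhfpl1 read 2.22, 2.31 and 3.66 FPKM in WT oil and 0.161, 0.130 and 0.344 in WT E2, while ERKO libraries stayed between 0.657 and 1.40. Ephb3, an ephrin receptor, went from 3.12 ± 0.378 to 1.97 ± 0.0914 FPKM under oil and read 1.44, 1.62 and 1.46 against 2.50, 2.13 and 2.03 under E2. Lhfpl1 and Ephb3 passed under oil, but not with the length and GC correction (adjusted p = 0.0782 and 0.0901).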

How the results depend on the processing

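The count of genes past the threshold in ERKO oil against WT oil, 213, stayed within 1.5 times under a pseudocount of 0.1 or 5, no filter, a mean of at least 2 FPKM, median-of-ratios scaling, no variance trend and with failed entries left out (191 to 258). It was 430 with quantile normalization, 2932 with library weights, 3319 without ERKO E2 3 in the fit, 1662 with only the groups compared, 3107 with only the 9 oil libraries, 81 with the length and GC correction and 1118 with that correction and without ERKO E2 3, and ran from 1 to 287 with 1 oil library left out. A block for replicate number, although the numbers did not pair the samples, gave 64 genes, 42 with the length and GC correction. ERKO oil against KIKO oil gave 1 gene without a filter, 75 with library weights and 0 otherwise. ERKO E2 against WT E2 (192) gave 1302 with library weights, 1286 without ERKO E2 3, 13 with only the groups compared, 415 with the length and GC correction, 869 with it and without ERKO E2 3, 328 with it and the replicate block, 140 with the block alone, and 95 to 1286 with 1 library left out. The interaction (41) gave 26 with quantile normalization, 73 with library weights, 63 without ERKO E2 3, 18 with only the groups compared, 70 and 80 with the length and GC correction with and without ERKO E2 3, 28 with the block, and 25 to 104 with 1 library left out. With the numbers as a block, 26 of the 63 named genes that passed did so, against 58 with a pseudocount of 0.1 or 5.

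Over 102 named genes, 1655 of 2235 values kept direction and side of the threshold, 465 lost the call, 104 gained one and 11 changed sign. Prlr changed sign with quantile normalization (−0.033), library weights (−0.093), the length and GC correction (−0.45, also with the block or without ERKO E2 3), without ERKO oil replicate 3 (−0.02) and without WT oil replicate 1 (−0.17), and ran from −0.17 to 0.20 with 1 oil library left out. Pgr changed sign with the length and GC correction (−0.11, likewise in its 2 other forms) and without WT oil replicate 1 (−0.0056), and ran from −0.0056 to 0.29 with 1 oil library left out. The cause of these changes was not tested. Absolute depth is unknown, which limits what can be said of genes below 1 FPKM, such as Adh7 in ERKO oil.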
